A study of Mus musculus with 4 samples.

Results

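The MAX network is the set of transcription factors through which MYC proteins act and are opposed, and 9 of its genes other than the MYC genes were followed here: Max, Mxd1, Mxd3, Mxd4, Mxi1, Mnt, Mga, Mlx and Mlxip. They were chosen by name, and all probe sets that the platform annotation assigns to a single one of them were taken, which gave 23 probe sets of the 45037 on the array that are not controls. All 9 genes were measured, out of 18193 named genes in all, and none was removed by a filter. Each gene is represented by its probe set of highest average level, and every other probe set is described as well. Levels and differences are on the log2 scale of RMA intensities, a probe-based measure, so they compare arrays for a given probe set and not different genes with each other.

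RNA came from haematopoietic stem cells of mice that carry a transgene in which N-myc is fused to the red fluorescent protein mCherry. The cells were sorted from bone marrow as lineage-negative, Sca-1-positive, Kit-positive, CD48-negative and CD150-positive, received no treatment or culture, and were then divided by mCherry. The N-myc high group held 2 arrays and the N-myc low group 2 arrays, each labelled mouse 1 and mouse 2, and the fusion gene is common to both groups. The promoter that drives the fusion and the strain, age and sex of the mice are not given in the labels. Nor is it stated whether more than 1 animal went into a sample, so p values refer to these samples and not to animals. Each SE and p value below rests on the spread between the samples, moderated by limma towards a spread pooled over all genes or probe sets. The smallest SE of any gene was 0.172, also where arrays of a group lay closer together. Of the sort markers, Kit lay between 10.17 and 10.29 in N-myc high and between 10.18 and 10.53 in N-myc low, and Slamf1, which encodes CD150, between 8.63 and 8.73 in N-myc high and between 8.01 and 8.99 in N-myc low. A Sca-1 probe set with a single gene name was not used here. The samples of mouse 1 carried both Xist, made from an inactive X chromosome (11.38 in N-myc high, 11.10 in N-myc low), and the Y-linked Eif2s3y (8.53 in N-myc high, 8.43 in N-myc low). In mouse 2, Xist was at 3.84 in N-myc high, against 3.70 in N-myc low, and Eif2s3y at 9.40, against 9.67. A value "in mouse 1" is therefore one within whatever that sample held. The bioB and bioC hybridisation controls were highest on the N-myc low array of mouse 2 (10.85 and 10.81 in N-myc high, against 11.05 and 11.67 in N-myc low), and the median difference of the 9 genes given below as -0.31 was -0.37 without that array.

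MYC proteins bind DNA only as dimers with MAX, a small protein that lacks an activation domain of its own, and the pair recognises the E-box CACGTG in promoters and enhancers. MXD proteins, MNT and MGA compete for MAX and for the same E-box, and the MXD proteins and MNT bring in SIN3 corepressors with histone deacetylases. MLX is a MAX-like protein that pairs with the glucose-responsive factor MLXIP, also called MondoA, and with some of the MXD proteins and MNT, so it links the network to nutrient supply. In blood, MYC proteins drive the expansion of progenitors, and Mxd genes are known for being switched on as haematopoietic cells stop dividing and mature.

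The E-box itself occurs in the promoters of some members, and the sites are shown because they are the sequence the network's own dimers recognise. Promoters of all 9 members were found in RefSeq's table (GRCm38.p6, 250 bases before to 50 bases after the start, 3 promoters for Mxi1), and the motif CACGTG, which reads the same on both strands, was searched in each. It was found in 4 of the 9 genes, against 8.09% of the 27025 genes in that table. Each site is printed 5′ to 3′ on the gene's strand with 10 bases on either side, and the capitals mark the E-box:
Max, chr12:76962236-76962261, minus strand: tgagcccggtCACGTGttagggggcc
Mxd4, chr5:34187914-34187939, minus strand: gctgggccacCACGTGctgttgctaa
Mnt, chr11:74830791-74830816, plus strand: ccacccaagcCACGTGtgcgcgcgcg
Mlx, chr11:101087240-101087265, plus strand: tgggttggatCACGTGactgagcctc
The motif began 3 bases before the annotated start in Max, 40 bases before it in Mlx, 123 in Mnt and 219 in Mxd4. It was not found in these windows of Mxd1, Mxd3, Mxi1, Mga and Mlxip. A match is a run of letters and not a measured binding site, and no binding data were used here.

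As a group, 7 of the 9 genes had lower means in N-myc high than in N-myc low cells and 2, Mnt and Mga, had higher ones. Over all 18193 genes, 9959 were lower and 8234 higher. None passed the threshold of limma, a Benjamini-Hochberg adjusted p under 0.05 over all genes, and in that fit 0 of 18193 genes (0%) passed, while 1148 (6.31%) had an unadjusted p under 0.05. The sizes were modest: the median difference of the 9 genes was -0.31, with -0.33 in mouse 1 and -0.26 in mouse 2, and the median over all genes was -0.03. Within each gene the sign was the same in mouse 1 and mouse 2 for 9 of 9 members, where 53% of all genes have the same sign in both, and for 18 of their 23 probe sets, where 53.1% of all probe sets do. The groups were apart for 6 members: for 5 the N-myc high pair was the lower, where the background is 20.8% of genes, and for 1 it was the higher, where it is 15.6%. In such bulk samples, fewer cells that express a gene and less RNA of it per cell cannot be told apart.

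**Figure D1:**
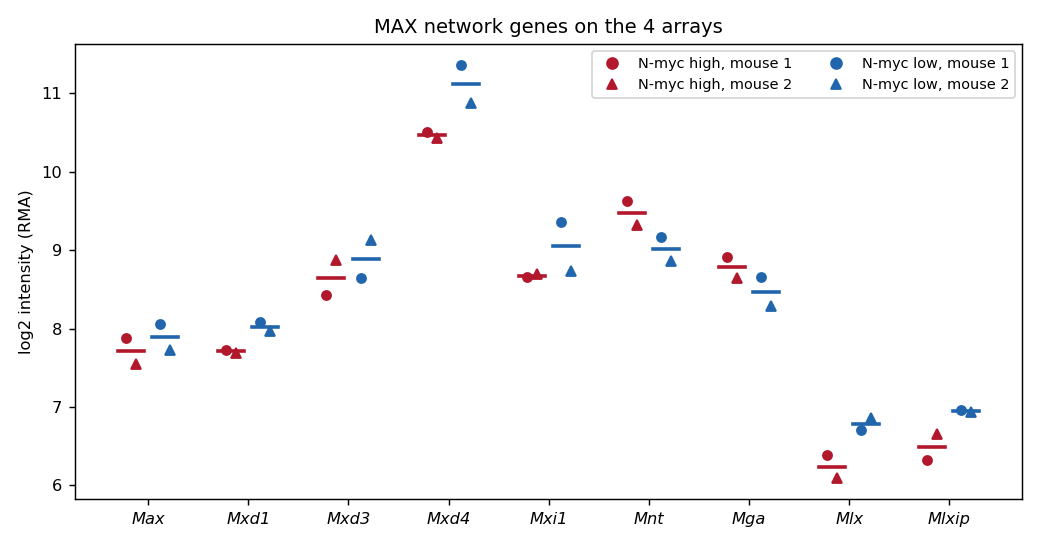
Log2 intensity (RMA) of the probe set that stands for each of the 9 genes on the 4 arrays, N-myc high in red left of N-myc low in blue, circles for mouse 1, triangles for mouse 2 and bars for the group mean (n = 2). Mxd4 lay at 10.50 and 10.43 in N-myc high and at 11.37 and 10.88 in N-myc low, and heights of different genes are not comparable.

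Max, the common partner of the network, was read by 1 probe set. It had log2 intensities of 7.88 and 7.54 in N-myc high (mouse 1 and 2), against 8.06 and 7.72 in N-myc low. The groups overlapped, since mouse 1 was higher than mouse 2 in both fractions by more than the fractions differed. The fitted difference of -0.18 had an SE of 0.234 (limma adjusted p = 0.915), and its 95% interval ran from -0.80 to 0.45. It was -0.17 in mouse 1 and -0.18 in mouse 2. Leaving out the N-myc high array of mouse 1 gave -0.35 and leaving out that of mouse 2 gave -0.0046. For the N-myc low arrays the values were -0.0082 (mouse 1 left out) and -0.34 (mouse 2 left out).

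**Figure D2:**
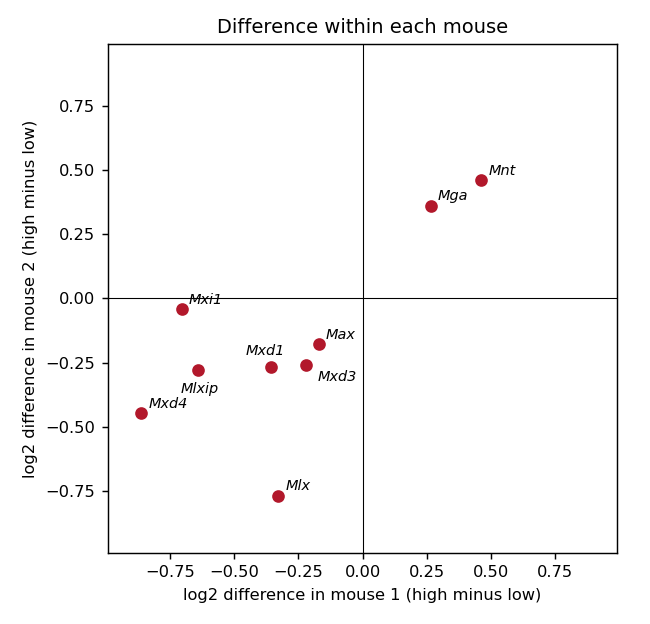
Log2 difference, N-myc high minus N-myc low, within mouse 1 (x axis) and within mouse 2 (y axis) for the 9 genes. Mnt and Mga lie above 0 in both mice and the other 7 below 0, with Mxi1 at -0.71 and -0.04.

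Among the MXD repressors, Mxd4 had the largest difference of the 9 genes with all arrays and this choice of probe sets, an order that other settings changed, for example the mean over probe sets (Mxd4 -0.23, Mlxip -0.46). Its level was 10.50 and 10.43 in N-myc high cells, against 11.37 and 10.88 in N-myc low cells. The groups did not overlap, and the N-myc high arrays lay 0.07 apart, against 0.49 between the N-myc low arrays. The difference of -0.66 (SE 0.237), 1.58-fold higher in N-myc low, had an unadjusted p of 0.0445 and a limma adjusted p of 0.779, and it was -0.41 without N-myc low mouse 1. A difference of that size or more, in either direction, was seen for 9.67% of all genes. Mxd4 encodes a MAD-type repressor of MAX-bound genes that is typical of cells leaving the cell cycle.

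The other probe sets of Mxd4 did not all follow. Probe set 1434379_at read 7.32 and 7.19 in N-myc high, against 7.76 and 7.76 in N-myc low, without overlap and with a difference of -0.50 (SE 0.178; unadjusted p = 0.0441, limma adjusted p = 0.781 over all probe sets). Probe set 1422574_at went the other way in mouse 1, with 7.16 and 6.67 in N-myc high, against 6.33 and 6.72 in N-myc low, a difference of 0.39 (SE 0.276). The dim 1422575_at, below the array median on all 4 arrays, gave -0.16. Averaged over its 4 probe sets, Mxd4 differed by -0.23.

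Mxi1, an MXD family repressor first known as a MAX interactor, was lower in mean, with a single array apart from the other 3. It had 8.66 and 8.69 in N-myc high, against 9.36 and 8.74 in N-myc low, so N-myc low mouse 1 stood 0.63 above N-myc low mouse 2. The difference was -0.37 (SE 0.271; limma adjusted p = 0.832), but leaving out N-myc low mouse 1 reduced it to -0.06. Its other probe set, 1450376_at, had 8.02 and 7.66 in N-myc high, against 8.18 and 8.09 in N-myc low, with -0.30 (SE 0.216), and there mouse 2 differed more (-0.44) than mouse 1 (-0.16). Both probe sets kept the groups apart in the same direction.

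Mxd1, the MAD repressor that is induced in maturing granulocytes, gave opposite answers by probe set. The probe set that stands for it, 1455104_at, had 7.73 and 7.70 in N-myc high, against 8.09 and 7.96 in N-myc low, a difference of -0.31 (SE 0.177; limma adjusted p = 0.809). Probe set 1434830_at had 7.82 and 7.30 in N-myc high, against 6.60 and 6.91 in N-myc low, a difference of 0.81 (SE 0.269; unadjusted p = 0.0372, limma adjusted p = 0.776). Probe set 1422002_at had 7.11 and 7.23 in N-myc high, against 6.66 and 6.89 in N-myc low, a difference of 0.40 (SE 0.194). None of the 3 had overlapping groups, 1 being lower and 2 higher in N-myc high, and the mean over them gave 0.30. The direction of Mxd1 was not settled by these arrays, and where on the transcripts each probe set lies was not analysed here.

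Mxd3 differs from the other MXD genes in being known for its expression in dividing cells. It had 8.43 and 8.87 in N-myc high, against 8.65 and 9.13 in N-myc low. The groups overlapped, with mouse 2 above mouse 1 in both fractions, and the difference was -0.24 (SE 0.278; limma adjusted p = 0.897). Probe set 1422970_at gave -0.14, with -0.41 in mouse 1 and 0.13 in mouse 2. Probe set 1448878_at, at 5.27 and 5.15 in N-myc high, against 5.53 and 5.75 in N-myc low, kept the groups apart with -0.43 (SE 0.192).

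Mnt, the broadly expressed repressor that buffers MYC in most cells, was the member with the largest positive difference with all arrays and this choice of probe sets. It had 9.63 and 9.33 in N-myc high, against 9.17 and 8.87 in N-myc low. The groups were apart with N-myc high above, and mouse 1 exceeded mouse 2 by 0.31 in N-myc high and by 0.30 in N-myc low, so the difference within each mouse was 0.46. The fit gave 0.46 (SE 0.224, 95% interval -0.13 to 1.06; unadjusted p = 0.0999, limma adjusted p = 0.793). The dimmer 1418193_at had 6.17 and 5.95 in N-myc high, against 6.13 and 6.20 in N-myc low, overlapped between groups and gave -0.10 (SE 0.189). Averaged over its probe sets, Mnt differed by 0.18, less than Mxd1 at 0.30 in that setting. With an array left out, the difference of Mnt ranged from 0.31 to 0.61.

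Mga encodes a very large protein that joins a T-box domain to the MAX-binding region and sits in a variant Polycomb complex. With its brightest probe set, 1434746_at, it had 8.92 and 8.65 in N-myc high, against 8.65 and 8.29 in N-myc low, a difference of 0.31 (SE 0.228; limma adjusted p = 0.832). The groups barely overlapped, since N-myc high mouse 2 and N-myc low mouse 1 were equal to 2 decimals. Its difference became 0.18 when the N-myc high array of mouse 1 was left out and 0.13 when the N-myc low array of mouse 2 was, and 0.49 when the N-myc low array of mouse 1 was. Probe set 1422646_at had 7.39 and 6.87 in N-myc high, against 8.05 and 8.54 in N-myc low, a difference of -1.16 (SE 0.299; unadjusted p = 0.0160, limma adjusted p = 0.765 over all probe sets). This was the largest difference among the 23 probe sets, 2.23-fold higher in N-myc low, and it opposed the other 4 probe sets of Mga.

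Of those, 1431232_a_at gave 0.16, and 1442356_at gave 0.11 with a gap of 1.62 between the N-myc high arrays and 1.20 between the N-myc low arrays. With 1442356_at, mouse 2 was above mouse 1 in both fractions, at 5.33 and 6.95 in N-myc high (mouse 1 and 2), against 5.44 and 6.64 in N-myc low. Probe set 1433012_at, below the array median on 3 of the 4 arrays, gave 0.63 with an SE of 0.559. The mean over the 5 probe sets was 0.0099, so the sign of Mga depended on the probe set read.

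Mlx, the partner of MLXIP, was the second member at an unadjusted p under 0.05 in the main fit, but not in the other settings given with Mlxip below. It had 6.38 and 6.09 in N-myc high, against 6.71 and 6.86 in N-myc low. The groups were apart, and mouse 2 differed more (-0.77) than mouse 1 (-0.33). The difference of -0.55 (SE 0.203), 1.46-fold higher in N-myc low, had an unadjusted p of 0.0478 and a limma adjusted p of 0.779. Its other probe set, 1425930_a_at, had 6.31 and 5.87 in N-myc high, against 6.12 and 6.49 in N-myc low, overlapped between groups and gave -0.22 (SE 0.262), with opposite signs in the mice.

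Mlxip, which encodes the glucose-responsive MondoA, differed in the same direction as Mlx and was read by 1 probe set. It had 6.32 and 6.66 in N-myc high, against 6.96 and 6.93 in N-myc low. The N-myc low arrays were 0.03 apart and both lay above the N-myc high arrays. The difference was -0.46 (SE 0.205; 95% interval -1.003 to 0.085; limma adjusted p = 0.793), and it was -0.29 without N-myc high mouse 1. Against the background of 2.78% of genes that were lower at an unadjusted p under 0.05, 2 of the 9 members, Mxd4 and Mlx, were lower at that level, and 0 were higher, where the background is 3.53%. With the mouse as a block neither was at that level (limma unadjusted p = 0.0505 for Mxd4 and 0.0815 for Mlx). The same held with the mean of probe sets (0.241 and 0.136) and with brighter genes alone (0.0525 and 0.0649). Mxd4 stayed at that level with median centring (limma unadjusted p = 0.0450) and a trended robust prior (0.0175). Mlx did not (0.0633 and 0.122). In the fit over all probe sets, the same Mlx probe set had a limma unadjusted p of 0.0527. The lower genes numbered 506 over all arrays, 271 when the N-myc high array of mouse 2 was left out and 743 when the N-myc low array of mouse 1 was.

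**Figure D3:**
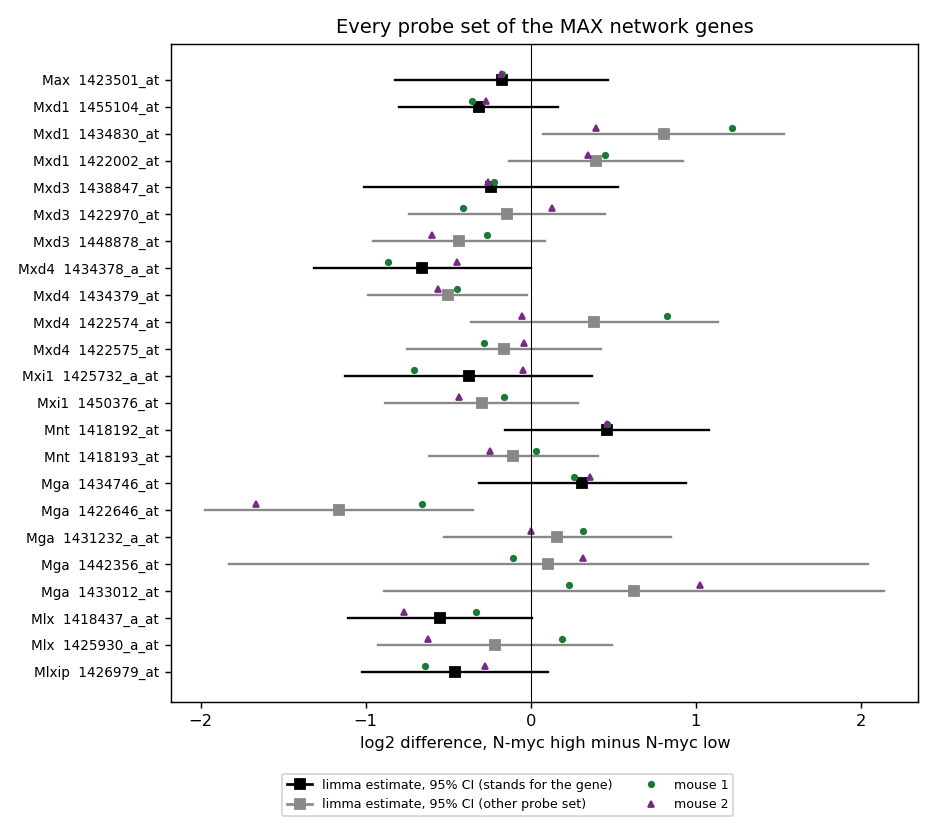
Log2 difference, N-myc high minus N-myc low, of all 23 probe sets, as squares with 95% intervals from limma fitted over all probe sets (black, probe set that stands for the gene; grey, other probe sets), with the difference in mouse 1 as circles and in mouse 2 as triangles. Probe sets of Mxd1, Mxd4, Mnt and Mga fall on both sides of 0, while those of Mxd3, Mxi1 and Mlx all fall below it.

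Over the 23 probe sets, 15 were lower and 8 higher in N-myc high, with a median of -0.18, against -0.05 over all probe sets. Of all 45037 probe sets, 25571 were lower and 19462 higher. Groups were apart for 9 on the lower side and 3 on the higher side, where the background over all probe sets is 22.1% and 14.4%. At an unadjusted p under 0.05 there were 3 lower (the background is 3.32%), namely 1422646_at of Mga and 1434378_a_at and 1434379_at of Mxd4, and 1 higher (3.06%), 1434830_at of Mxd1, and 0 passed the adjusted threshold, as was the case for all 45037 probe sets. Probe sets of a gene come from the same 4 RNA samples and are not replicates of each other. Of the 7 genes with several probe sets, all probe sets of Mxd3, Mxi1 and Mlx were lower in mean, and those of Mxd1, Mxd4, Mnt and Mga disagreed.

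The 4 genes with an E-box match in the promoter window were found on both sides, with differences of -0.18 for Max, -0.66 for Mxd4, 0.46 for Mnt and -0.55 for Mlx. Those without a match were at -0.31 for Mxd1, -0.24 for Mxd3, -0.37 for Mxi1, 0.31 for Mga and -0.46 for Mlxip, with Mga alone above 0. These values hold for the probe set that stands for each gene, since the probe sets of Mxd1, Mxd4, Mnt and Mga disagreed in sign.

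The MYC genes supply the partners of MAX that the MXD proteins, MNT and MGA oppose. Mycn, the gene behind the sort, had 10.48 and 10.39 in N-myc high, against 9.44 and 9.65 in N-myc low, a difference of 0.89 (SE 0.189; limma adjusted p = 0.762). Its 2 further probe sets overlapped between groups with opposite signs in the mice, at 0.32 in mouse 1 and -0.10 in mouse 2 for 1425922_a_at and -0.20 and 2.32 for 1425923_at. Myc had 11.37 and 11.26 in N-myc high, against 11.40 and 11.65 in N-myc low, a difference of -0.21 (SE 0.195; limma adjusted p = 0.867). Mycl lay below 5.0 on all arrays, at 4.67 and 4.95 in N-myc high, against 4.98 and 4.93 in N-myc low. Mlxipl, the ChREBP partner of MLX, lay between 2.30 and 2.59 on all 4 arrays, under the array medians of 5.26 to 5.32, so no difference could be read from it.

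The corepressors that the MXD proteins and MNT recruit were measured for 17 of 20 genes, of which 8 were higher and 9 lower, with a median of -0.02. At an unadjusted p under 0.05, 1 was higher and 1 lower, where 3.53% and 2.78% of all genes were, and 0 passed the adjusted threshold. Sap30l, a relative of the SIN3 complex subunit Sap30, had 8.50 and 8.71 in N-myc high, against 9.56 and 9.46 in N-myc low, a difference of -0.90 (SE 0.189; limma adjusted p = 0.762). Brms1l, another SIN3 complex gene, had 7.12 and 6.29 in N-myc high, against 5.74 and 5.10 in N-myc low, a difference of 1.28 (SE 0.390), although its other probe set gave -0.31. The SIN3 partner gene Arid4b gave 0.38 (SE 0.179), and its other 5 probe sets ranged from -0.21 to 0.40.

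Polycomb partners of MGA were measured for 11 of 12 genes, 7 higher and 4 lower, with a median of 0.07, 1 higher (all genes, 3.53%) and 0 lower (2.78%) at an unadjusted p under 0.05, and 0 past the adjusted threshold. Rnf2, the catalytic ubiquitin ligase of the complex, had 8.61 and 8.68 in N-myc high, against 8.13 and 8.06 in N-myc low, a difference of 0.55 (SE 0.175; limma adjusted p = 0.779), while its other 4 probe sets ranged from -0.35 to 0.58. The related ligase gene Ring1 gave 0.61 (SE 0.309), with 8.62 and 8.15 in N-myc high, against 8.08 and 7.47 in N-myc low. Wdr5, a scaffold of several chromatin complexes, gave 0.46 (SE 0.174) and -0.51 with its other probe set.

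Germ line genes that MGA and its complex keep silent in somatic cells were measured for 12 of 12 genes, 4 higher and 8 lower, with a median of -0.16 and 0 in either direction at an unadjusted p under 0.05. Over all 18193 genes, 9959 were lower. Tdrd1, a piRNA pathway gene, had 2.94 and 2.93 in N-myc high, against 3.40 and 3.39 in N-myc low, a difference of -0.45 (SE 0.172). The levels of Tdrd1 and of Mael, another gene of that pathway (difference -0.28), were below the array medians throughout. So were those of all other genes of the list except Sycp3, so its counts and median rest largely on dim values. Sycp3, of the synaptonemal complex, had 5.44 and 5.13 in N-myc high, against 4.85 and 5.13 in N-myc low, a difference of 0.30 (SE 0.221). It was above the array median only in N-myc high mouse 1.

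Targets of MLX with its partners were measured for 10 of 10 genes, 4 higher and 6 lower, with a median of -0.14. At an unadjusted p under 0.05, 1 was higher (all genes, 3.53%) and 0 lower (2.78%), and 0 passed the adjusted threshold. Which partner of MLX acts on each gene was not tested, so the list is not a readout of MLXIP alone. Hk2, a hexokinase of the first step of glycolysis, had 7.55 and 7.95 in N-myc high, against 7.25 and 6.86 in N-myc low, a difference of 0.70 (SE 0.254; limma adjusted p = 0.779). Txnip, the thioredoxin-binding gene most used as a readout of MondoA, had 11.17 and 11.19 in N-myc high, against 11.03 and 11.01 in N-myc low, a difference of 0.16 (SE 0.172, limma adjusted p = 0.890). Tkt, a transketolase of the pentose phosphate pathway, gave -0.29 (SE 0.179), and -0.94 and -0.14 with its other probe sets.

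E-box targets shared by MYC, MNT and MXD proteins were measured for 20 of 20 genes, 6 higher and 14 lower, where 9959 of all 18193 genes were lower. Their median was -0.04, against -0.03 over all genes. None was past an unadjusted p under 0.05 in either direction. The purine synthesis gene Gart had 9.05 and 8.92 in N-myc high, against 9.48 and 9.39 in N-myc low, a difference of -0.45 (SE 0.180; limma adjusted p = 0.781), while its other 3 probe sets ranged from -0.40 to 0.31. Shmt1, of one-carbon metabolism, gave -0.36 (SE 0.204) and the nucleolar methyltransferase gene Fbl -0.27 (SE 0.197). Over the list, the groups were apart for 4 of 20 genes on the lower side and 2 on the higher side, where the background is 20.8% and 15.6%.

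**Figure D4:**
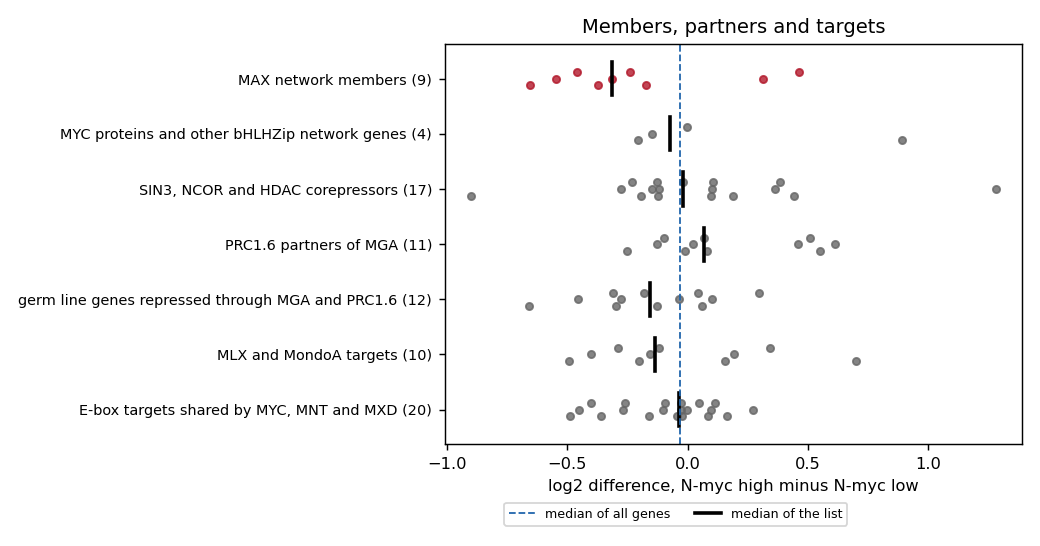
Log2 difference, N-myc high minus N-myc low, of the 9 members (red) and of the genes in 6 lists of partners and targets (grey), each point a gene, the black bar the list's median and the dashed line the median of all genes (-0.03). The members' median is -0.31 and the medians of the other lists lie between -0.16 and 0.07.

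By likeness of pattern over the 4 arrays, the genes closest to Max were Eif3i, a subunit of a translation initiation factor, Vsig10l and Gpha2, each with a Pearson r that rounds to 1.00. For Mxd4 they were Celf2, an RNA-binding protein, the muscle gene Myom2 and Dtl, an adaptor of a ubiquitin ligase, again at 1.00. Gpha2 (4.26 to 4.61) and Myom2 (3.47 to 4.47) were dim, below the array medians of 5.26 to 5.32 throughout. Vsig10l was below the median on the N-myc high array of mouse 2 (5.24). With only 4 arrays a high r carries little weight. An r of 0.95 was reached by 412 genes (2.27%) with Max and by 548 (3.01%) with Mxd4, and how many came near 1.00 was not counted.

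Some lineage markers differed in the same direction as most members. Over all 18193 genes, 8234 were higher and 9959 lower in N-myc high. Erythroid and megakaryocyte markers were lower in N-myc high for 6 of 7 measured genes, with a list mean of 8.12 and 7.82 in N-myc high, against 8.53 and 8.35 in N-myc low. Granulocyte and monocyte markers were lower for 8 of 9, with a mean of 9.66 and 9.32 in N-myc high, against 9.85 and 9.86 in N-myc low. Macrophage markers were higher for 6 of 8, with a mean of 6.06 and 5.87 in N-myc high, against 5.51 and 5.00 in N-myc low. The macrophage list held C1qb, higher by 2.66, and Mrc1, higher by 2.26 (0.73 in mouse 1, 3.80 in mouse 2). Its C1qa (0.32) and C1qc (0.26) overlapped between groups, while Adgre1 (-0.14) and Cd68 (-0.10) were lower in mean. The median difference of the macrophage list was 0.26. B cell markers (3 of 7 higher, median difference -0.15, Vpreb1 higher by 2.45) averaged 5.23 and 5.30 in N-myc high, against 4.73 and 5.12 in N-myc low, and T and NK cell markers (4 of 6 higher) 3.84 and 4.05 in N-myc high, against 3.92 and 3.79 in N-myc low. Stem cell markers were higher for 8 of 9 genes, at 9.08 and 9.23 in N-myc high, against 8.63 and 8.57 in N-myc low. The groups were apart with N-myc high above for 6 of them, where the background is 15.6% of genes. Among the 6 were Procr (difference 1.19), Fgd5 (1.58), Mecom (1.05) and Hlf (0.79). These were the 4 of the list with an unadjusted limma p under 0.05, where 3.53% of all genes were higher at that level. The part of these cell types in the members' differences was not tested.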

How the data were processed

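The authors deposited log2 probe set intensities of 4 arrays after RMA, per the submitters' processing notes. These list the tools affy and limma too, with no version. RMA normalises arrays by quantiles, so a shift shared by all genes is lost. The chip definition is not given in the sources used here, and detection calls were not used, so a dim value has no background beside it. The number of arrays limits the precision.

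Of 45101 probe sets, 64 controls were left out and 34945 had 1 gene name in the platform annotation. For 34741 of these the Entrez number was found in RefSeq's gene table (GRCm38.p6), which changed 0 symbols. N-myc high was compared with N-myc low in R 4.3.3 with limma 3.58.1 (lmFit, eBayes), over 18193 genes (probe set of highest mean) and, for single probe sets, over 45037 probe sets, with Benjamini-Hochberg adjustment over all of them and no filter on dim values. Values of genes come from the first fit and those of further probe sets from the second. An exact two-sided permutation test of 2 against 2 arrays cannot go below 0.333. The fit was also run on simulated data with the same spread for every gene and independent arrays. That setting differs from these data, so the run does not show how well the p values hold here.

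The members and lists were chosen with earlier results of these data known. Named were all members and their probe sets, Mycn, Myc and Mycl, the 3 genes of smallest unadjusted p in every list of partners or targets, and the 3 genes most like Max and the member of largest difference. Mlxipl, Xist, Eif2s3y and the cell type markers were named after their values were seen. The labels give the mouse number, and same-numbered arrays were paired on that label. With both Xist and Eif2s3y in its samples, it is open whether mouse 1 is a single animal. The pairs are the arrays that share a label. Deviations of these paired arrays from the group means correlated at r = 0.0492 across genes. The main comparison left the mouse out, and the alternatives were the mouse as a block, the mean of a gene's probe sets, brighter genes alone, median centring, a trended robust prior and each array left out.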

Additional observations from a re-analysis of the deposited data

How the results depend on the processing

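Under the alternatives run, 0 genes passed the adjusted threshold each time, and the lowest adjusted p of any member was 0.635. Of 81 repeated differences of the 9 members, 79 kept their direction and 2 reversed: Mxd1, at 0.30 with the mean of its probe sets, and Mxd3, at 0.0025 without N-myc low mouse 2 in a range from -0.48 to 0.0025 over the arrays left out. Many of the 79 could not have reversed. The mouse as a block, brighter genes alone and the trended robust prior leave every difference as it was. The mean of probe sets does so for Max and Mlxip, read by 1 probe set each. The members' median was -0.23 with the mean of probe sets and ranged from -0.39 to -0.25 with an array left out. Genes at an unadjusted p under 0.05 numbered 606 of 9096 brighter genes, 2870 of 45037 probe sets and 795 to 1512 with an array left out, where fewer or more features or fewer arrays were used. With the mouse as a replicate block that count was 1098, against 1148, and no adjusted call changed. In the blocked limma fit the unadjusted p of Mxd4 was 0.0505, against 0.0445, and that of Mlx 0.0815, against 0.0478. Their differences ranged from -0.90 to -0.41 and from -0.69 to -0.40 with an array left out, and over all alternatives their adjusted p ranged from 0.682 to 0.980 and from 0.635 to 0.963. Mxi1 ranged from -0.69 without N-myc low mouse 2 to -0.06 without N-myc low mouse 1. Median centring moved the median of all genes by 0.03. Dim probe sets, such as those of Mycl, Mlxipl and the germ line genes, carry no measured background, and 2 arrays in each group limit every interval.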
